A study of Mus musculus with 6 samples.

Results

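The genes of the proteasome were compared between control and Snai1 knockout intestinal organoids. They were taken as every gene whose platform symbol starts with Psma, Psmb, Psmc, Psmd, Psme, Psmf or Psmg followed by a number, except the interferon-inducible Psmb8 and Psmb9. The rule gave 47 genes of the 19057 named on the array. By textbook role these were 17 subunits of the core particle, 17 of the regulatory particle, 7 assembly chaperones and 4 activators. The other 2, Psmc3ip and Psme3ip1, match by symbol only: the first encodes a factor of meiotic recombination and the second a protein that binds the activator encoded by Psme3, and neither is a subunit. They stayed in every count of the 47.

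The samples were mouse small intestinal organoids, epithelial structures grown in culture from intestinal tissue, all exposed to 0.5 µM tamoxifen for 24 hours. There were 3 control arrays, from Villin-Cre mice, and 3 knockout arrays, from Villin-Cre, Snai1fl/fl mice. Both groups therefore carried Cre, whose Villin promoter acts in intestinal epithelium, and both received tamoxifen. Only the knockout group carried floxed Snai1, the gene of a zinc-finger repressor. Nothing in the labels ties an array to an animal of its own. P-values below therefore rest on array-to-array spread, which may be technical.

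The proteasome is the protease that degrades most short-lived and damaged proteins of the cytosol and nucleus, usually after ubiquitin has been attached to them. Its core particle is a barrel of stacked rings. The outer rings of alpha subunits (Psma) gate the entrance, and the inner rings of beta subunits (Psmb) carry the cutting sites. The regulatory particle caps the barrel: its ATPases (Psmc) unfold the substrate and feed it in, while its non-ATPase subunits (Psmd) bind ubiquitin chains and remove them. Because the subunits are needed in fixed proportions, their genes are known to be transcribed together, in part through the transcription factor Nfe2l1. The intestinal epithelium renews itself continuously.

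Values are given as deposited, on a scale taken as log2. Over all probes they ran from 7.71 to 14.8 with a median of 7.87, so low values are compressed and their differences understated. Arrays correlated at r = 0.994 to 0.997 over all probes. Of 6 general markers of epithelium, 5 had means above the upper quartile of all values (8.27), up to 14.3 for Krt8, and Epcam lay below it at 8.12. All 14 markers of fibroblasts, smooth muscle, immune and endothelial cells lay between 7.81 and 7.97, at the bottom of the scale. So did Fabp1 of enterocytes (7.80 and 7.78 in control and knockout) and Agr2 of goblet cells (7.98 and 7.97), so a low reading does not show that a cell type was absent. The Snai1 probe read 7.91 ± 0.04 in control and 7.91 ± 0.05 in knockout arrays (SD, n = 3), also at the bottom, so it does not check the labels. In such bulk samples fewer cells of a type and less RNA per cell cannot be told apart. Markers of the epithelial cell types differed between the genotypes without a call (0 of 14, with or without the replicate block). Of the stem cell markers, Olfm4 was higher by 0.45 ± 0.13 (SE) without overlap (limma adjusted p = 0.48), Lgr5 by 0.42 ± 0.18 (adjusted p = 0.73, and 0.069 with the block) and Ascl2 by 0.04. The 4 enterocyte markers were lower, with Apoa1 at -0.28 and Alpi at -0.24, Fabp1 at -0.02 and Sis at -0.00. Of the enteroendocrine markers Chga differed by -0.17 without overlap and Chgb by -0.15, and of the Paneth markers Lyz1 by -0.10 without overlap and Mmp7 by 0.08. The goblet markers Muc2, Tff3 and Agr2 differed by 0.29, 0.10 and -0.01. The part of these differences in the values of the proteasome genes was not tested.

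No proteasome gene was called as changed between the genotypes. Of the 47 genes, 0 passed an adjusted p of 0.05 in the limma fit over all genes, against 25 of 19057 genes, or 0.131%, in the whole table. With the replicate number as a block the counts were again 0 of 47, against 9 of 19057 genes (0.0472%). At an unadjusted p under 0.05 there were 2 proteasome genes, where 7.22% of all genes reached that level: Psmc1, lower in knockout as in 3.34% of all genes, and Psmd1, higher as in 3.88%. With the block there were 6, of which Psmc1, Psmb10, Psme2 and Psma2 were lower and Psmd1 and Psmd11 higher, where 10.9% of all genes reached that level, 5.04% lower and 5.88% higher. The values of control and knockout arrays did not overlap for 3 of the 47 genes (6.38%), against 12.0% of all genes. Psmc1 and Psmc4 were the lower ones (5.85% of all genes) and Psmd1 the higher (6.20%). All 3 belong to the brighter genes defined next, among which 14.9% of all genes had groups without overlap. Arrays can also be compared in pairs of the same replicate number. In all 3 pairs 8 of the 47 genes (17.0%) were lower in knockout, against 15.1% of all genes, and 3 (6.38%) were higher, against 15.7%.

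The absence of calls came with narrow intervals. Of the 47 genes, 39 had a mean over the 6 arrays above 8.27. For all 39 the 95% interval of the difference, unadjusted for the number of genes, excluded a change of 1.5-fold in either direction. For 29 it excluded 1.25-fold. Of all 6969 genes above 8.27, the intervals of 6745 and 5142 did so, and nothing particular to the proteasome is read from these counts. The bounds are on the array scale, which understates differences of genes just above 8.27. The count for 1.5-fold was 36 to 38 when any 1 array was left out, and 38 with array weights. The median absolute difference of the 39 was 0.06 on the log2 scale, and that of all 6969 genes above the same level was 0.07. The median standard errors were likewise 0.07 for both. Differences of all 47 ran from -0.18 for Psmg3 to 0.20 for Psmd1. Of the 47, 32 (68.1%) had a lower mean in the knockout arrays, against 50.7% of all genes, with a median difference of -0.018 against -0.0006. That median was close to the SD between arrays of a group (0.0148), and the genes share the same arrays, so the direction has no test.

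**Figure D1:**
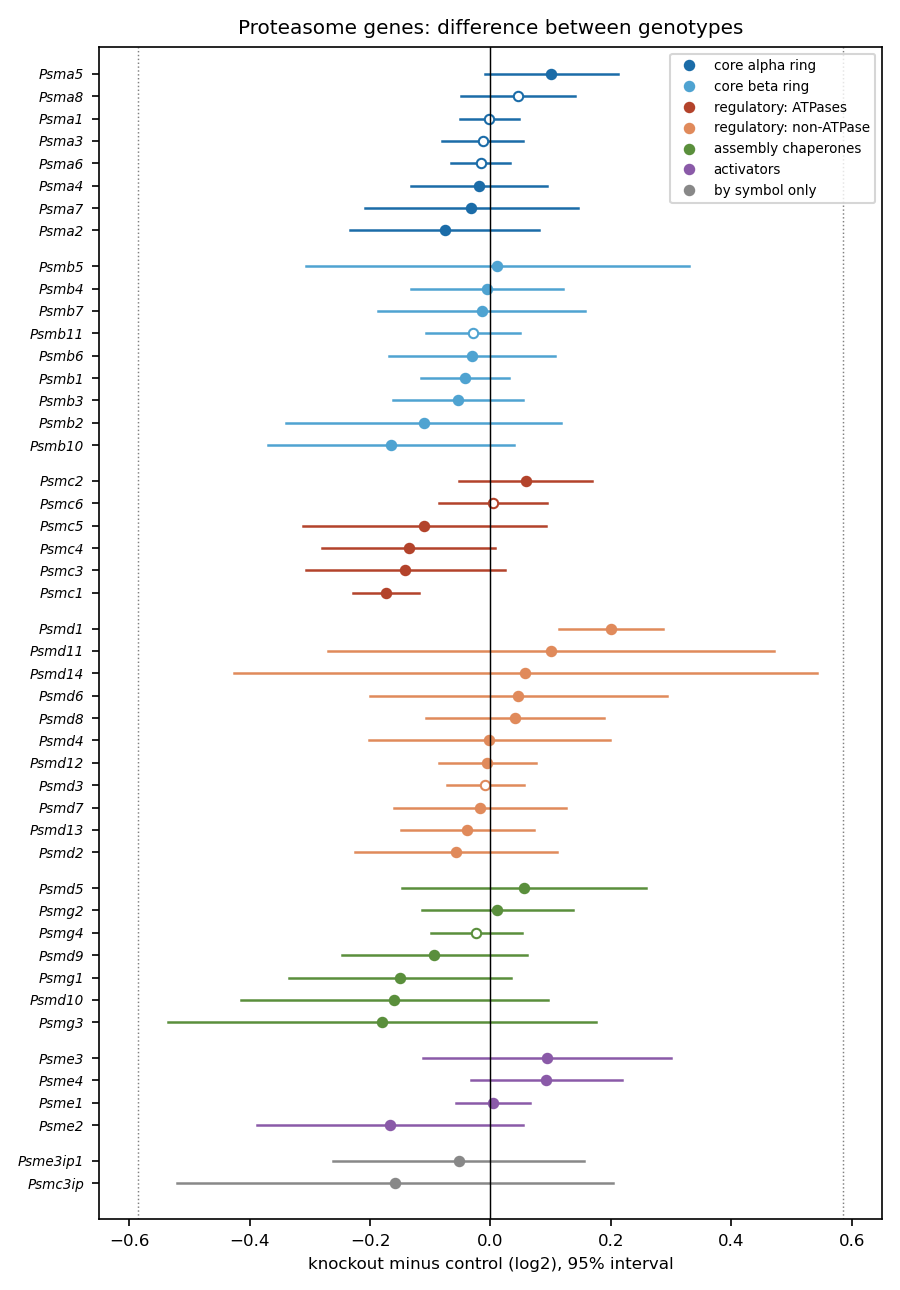
Difference between knockout and control (log2, horizontal axis) for each of the 47 genes, grouped and coloured by role, with its 95% interval from limma; open circles mark genes at or below the upper quartile of all values, and dotted lines mark a 1.5-fold change. No interval of the 39 filled circles reaches a dotted line, Psmd1 is highest at 0.20, and the lowest ATPase is Psmc1 at -0.17.

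In the outer ring of the core particle, 4 of 8 genes were above the upper quartile. Psma5 read 13.67, 13.72 and 13.66 on control replicates 1 to 3 and 13.87, 13.71 and 13.76 on knockout replicates 1 to 3. Knockout replicate 2 lay just below the highest control, and the difference of 0.10 ± 0.04 (SE) did not pass (limma adjusted p = 0.73). Psma2 read 13.88, 13.86 and 13.72 in control and 13.85, 13.74 and 13.65 in knockout. Each knockout value lay below the control value of its number, by 0.03, 0.13 and 0.07, with wide overlap of the groups (adjusted p = 0.92). Psma4 and Psma7 differed by -0.02 and -0.03. The other alpha genes sat at the bottom of the scale. Psma8, known as the testis form that takes the place of Psma7 there, read 7.86 ± 0.03 and 7.91 ± 0.07 (SD, n = 3). Psma1, Psma3 and Psma6, which encode constitutive subunits of every core particle, lay there as well, with control means of 7.81, 7.81 and 7.80. A reading at the bottom of these arrays therefore cannot be taken as an absent transcript, and for these 3 genes a change was not measurable.

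The inner ring holds the cutting sites. Psmb5, which carries the chymotrypsin-like site, read 9.20, 9.14 and 9.47 in control and 9.08, 9.49 and 9.27 in knockout arrays. These values were thoroughly mixed between the groups, and the difference was 0.01 with a 95% interval of -0.31 to 0.33. Psmb6, with the caspase-like site, read 13.02, 12.95 and 13.02 against 12.98, 13.07 and 12.86, a difference of -0.03 (interval -0.17 to 0.11). Psmb7, with the trypsin-like site, read 12.89, 13.00 and 12.74 against 12.91, 12.88 and 12.80, and the interval of its difference was -0.19 to 0.16. On the brightest probe of each of these 3 constitutive cutting subunits, the intervals reached at most 1.26-fold, for Psmb5. A dimmer probe of Psmb7, with a mean of 10.4, had a wider interval of -0.42 to 0.48. Psmb10, which replaces Psmb7 in the interferon-induced immunoproteasome, read 11.10, 11.00 and 10.94 in control and 11.01, 10.80 and 10.73 in knockout. All 3 knockout values lay below the control value of the same number (by 0.09, 0.20 and 0.21), but the groups overlapped and the difference of -0.16 ± 0.08 (SE) did not pass (adjusted p = 0.78, and 0.21 with the replicate block). Psmb11, known from the thymus, stayed at the bottom of the scale at 7.92 and 7.89. Psmb1, Psmb2, Psmb3 and Psmb4 differed by -0.04, -0.11, -0.05 and -0.01.

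Of the 6 role classes the lowest median difference, -0.12, was that of the ATPases. In all 3 pairs 4 of the 6 genes were lower, beside the 15.1% of all genes given above and 4 of the 41 other proteasome genes. Psmc1 read 11.06, 11.04 and 11.01 in control and 10.84, 10.87 and 10.87 in knockout arrays. The groups were well apart and tight, with SDs of 0.02 each. The difference was -0.17 ± 0.02 (SE), so control exceeded knockout 1.13-fold, and it had the lowest adjusted p of the 47 genes at 0.11 (0.16 with the replicate block). Over all alternatives its adjusted p ran from 0.0618 to 0.748, the latter when eBayes let the variance follow the level. Psmc4 read 12.50, 12.62 and 12.49 in control and 12.41, 12.30 and 12.49 in knockout. Its groups were separated by less than 0.01, at replicates numbered 3 (difference -0.14 ± 0.06, SE; adjusted p = 0.72).

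Psmc3 read 11.91, 11.80 and 11.87 against 11.82, 11.76 and 11.58, with 1 knockout value above the lowest control value (adjusted p = 0.76). Psmc5 differed by -0.11 and -0.10 on its 2 bright probes. Psmc2 went the other way, at 0.06, and Psmc6 was at the bottom of the scale (7.97 and 7.98). Averaged over the 6 ATPases, the deviation from each gene's 6-array mean was 0.05, 0.07 and -0.00 on control replicates 1 to 3 and -0.02, -0.05 and -0.05 on knockout replicates 1 to 3. The 2 groups of arrays did not overlap in this mean, which was chosen for description and has no test. In the core beta ring they overlapped only narrowly, with a lowest control of 0.0050 and a highest knockout of 0.0052. There 8 of 9 genes had a lower mean in knockout, against 4 of 6 ATPases.

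Among the 11 non-ATPase subunits 5 were higher and 6 lower, with a median difference of -0.002 (0.02 over the 10 above the upper quartile). Their mean deviation was -0.05, -0.04 and 0.05 on control replicates 1 to 3 and -0.04, 0.00 and 0.08 on knockout replicates 1 to 3. It was thus higher in knockout in each pair of the same number, by less than the spread within a group. The genes higher in all 3 pairs were Psmd1, Psmd11 and Psmd14. Psmd1, a scaffold subunit at the base of the particle, read 13.24, 13.20 and 13.20 in control and 13.39, 13.38 and 13.48 in knockout. All knockout values exceeded all control values, by a mean of 0.20 ± 0.03 (SE), or 1.15-fold (interval 1.08 to 1.22). This was the highest difference of the 47 genes, and it did not pass (adjusted p = 0.24, and 0.18 with the block). A second bright probe of the gene differed by 0.13 ± 0.06 with overlapping groups, and the remaining probe by -0.07 ± 0.13, and with the gene's probes averaged the difference was 0.08 (adjusted p = 0.90). Psmd2, the other large scaffold, differed by -0.06.

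Psmd4, a receptor for ubiquitin chains, read 12.64, 12.94 and 12.73 against 12.84, 12.74 and 12.73, with equal group means of 12.77. Psmd14, the deubiquitinase that strips chains from the substrate, varied most of all 47 genes, over a range of 0.60. It read 10.02, 10.36 and 10.60 in control and 10.05, 10.49 and 10.62 in knockout, so the arrays of the same number nearly coincided while those of different numbers lay far apart. Psmd11, which clamps the regulatory to the core particle, read 9.07, 9.13 and 9.54 in control and 9.23, 9.26 and 9.56 in knockout, so replicates numbered 3 stood above the others in both groups. Its difference of 0.10 ± 0.15 (SE) had an unadjusted p of 0.53, and of 0.042 with the block (limma adjusted p = 0.43). A second probe of each gene kept neither the sign nor this pattern by replicate number. It differed by -0.15 ± 0.06 for Psmd11 and by -0.07 ± 0.07 for Psmd14. For Psmd14 it read 10.05, 10.11 and 10.31 in control and 10.09, 10.11 and 10.06 in knockout. For Psmd11 it read 8.58, 8.47 and 8.42 in control and 8.25, 8.34 and 8.44 in knockout.

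**Figure D2:**
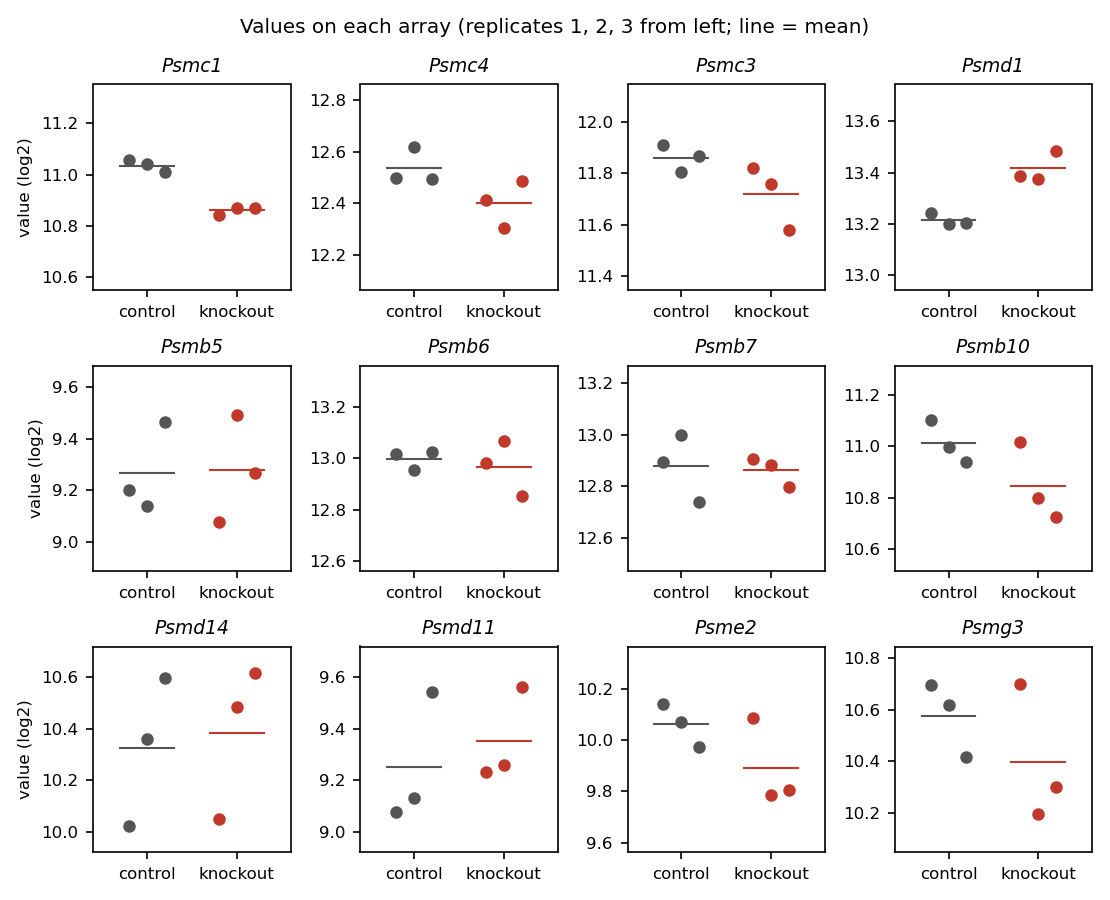
Values on each array (log2, vertical axes spanning 0.8 units in every panel) for 12 genes, with control arrays in grey, knockout arrays in red, replicates 1 to 3 from left to right within a group and a line at each group mean. Psmc1 and Psmd1 separate the groups, and Psmc4 does so narrowly. On the probes shown, the cutting subunits Psmb5, Psmb6 and Psmb7 do not, and Psmd14 differs more between replicate numbers than between genotypes.

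Core and regulatory particle were then set against each other within each array. The mean deviation of the 17 core genes minus that of the 17 regulatory genes was 0.03, 0.03 and -0.04 on control replicates 1 to 3 and 0.05, 0.01 and -0.08 on knockout replicates 1 to 3. The genotypes differed by -0.016 in this quantity, far less than its SD of 0.04 in control and 0.07 in knockout arrays. Restricted to the 12 core and 15 regulatory genes above the upper quartile, the difference was -0.025. Replicates numbered 3 had the lowest value in both groups. Within the regulatory particle, ATPases minus non-ATPase subunits gave 0.11, 0.11 and -0.05 in control and 0.02, -0.06 and -0.13 in knockout arrays. That is a difference of -0.11 with SDs of 0.09 and 0.08, and the groups overlapped, although each knockout array lay below the control array of its number.

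**Figure D3:**
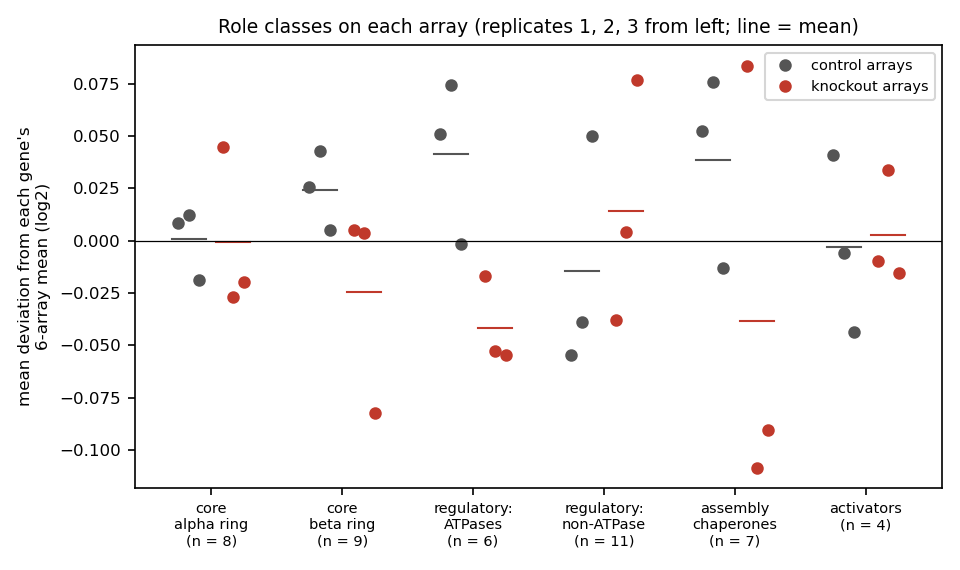
Mean deviation from each gene's 6-array mean (log2, vertical axis) for 6 role classes on each array, control in grey and knockout in red, replicates 1 to 3 from left to right, lines at group means. The ATPases are the class in which the groups do not overlap, while the core beta ring overlaps only narrowly (lowest control 0.0050, highest knockout 0.0052). The chaperones show the widest scatter, from -0.11 to 0.08 within the knockout group.

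Assembly chaperones help the rings and the base form and then leave. Of the 7 measured, 5 were lower in knockout and 0 passed. Psmg3 had the lowest difference of the 47 genes, -0.18 ± 0.14 (SE), and was also among the most variable. It read 10.70, 10.62 and 10.42 in control and 10.70, 10.19 and 10.30 in knockout, so knockout replicate 1 lay as high as the highest control (adjusted p = 0.92). Psmg1, its relative in alpha ring assembly, had means of 10.13 ± 0.13 and 9.98 ± 0.09 (SD, n = 3), lower in 3 of 3 pairs (-0.15 ± 0.08, SE; adjusted p = 0.78). Psmd10, also called gankyrin, which helps assemble the ATPase ring, differed by -0.16, -0.12 and -0.11 on its 3 probes, none of which passed. Psmd9 differed by -0.09 and Psmd5, in the other direction, by 0.06, while Psmg2 stood at 0.01 and Psmg4 at the bottom of the scale.

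The activators are alternative caps. Psme1 and Psme2 encode partner subunits of the interferon-inducible cap. Psme1 was the steadiest bright gene of the set, with a range of 0.0649 over the 6 arrays and a difference of 0.00 (interval -0.06 to 0.07). Psme2 read 10.14, 10.07 and 9.97 in control and 10.09, 9.79 and 9.81 in knockout. The difference was -0.17 ± 0.09 (SE) with overlapping groups, lower in 3 of 3 pairs (adjusted p = 0.81, and 0.34 with the block). Psme3, whose product forms the nuclear cap, read 11.31, 11.27 and 11.27 against 11.21, 11.55 and 11.36, a difference of 0.09. Psme4, a single-chain cap, also differed by 0.09, with 1 control value among the knockout values. Of the genes taken by symbol only, Psmc3ip differed by -0.16 ± 0.15 (SE) and Psme3ip1 by -0.05.

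Genes with several probes gave a check on these values. Of the 47 genes 27 had more than 1 probe, and 16 of them had at least 1 further probe above the upper quartile. Of these 22 further probes, 16 had the sign of the first and 6 the opposite sign, and 0 of all 83 proteasome probes passed over all probes (lowest limma adjusted p = 0.0973). The 2 bright probes of Psmb2 differed by -0.11 each. For Psmb6 they did not match: the second probe read 12.78, 12.84 and 12.79 in control and 12.63, 12.71 and 12.55 in knockout arrays. It separated the groups with a difference of -0.17, where the first probe gave -0.03, and it did not pass either (adjusted p = 0.46). The opposite signs belonged to Psmb7, Psmc2, Psmd1, Psmd11 and Psmd14.

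**Figure D4:**
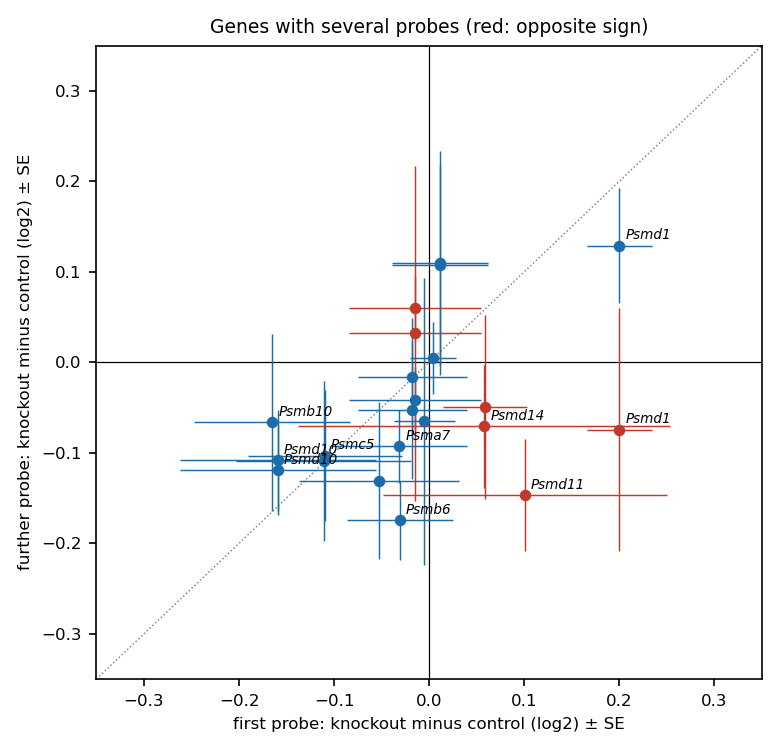
Difference between knockout and control (log2 ± SE) on the first probe of a gene (horizontal axis) against the difference on each further probe above the upper quartile (vertical axis), 22 probes in all; red points have opposite signs, and the dotted line marks equal values. Of the 22 points, 16 share the sign of the first probe, and the second probe of Psmb6 lies at -0.17.

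The proteasome genes were also compared for how they varied together between arrays of the same genotype. Deviations from the group means were taken for the 39 genes above the upper quartile, on the first probe of each. Each gene was correlated over the 6 arrays with the mean of the other 38. The correlation exceeded 0.7 for 14 genes (35.9%), among them 8 of the 12 core genes, with Psma7 at 0.98, Psmb2 at 0.91 and Psmd10 at 0.97. It was below -0.7 for 7 genes (17.9%), of which 5 encode non-ATPase subunits: Psmd6, Psmd8, Psmd2, Psmd14 and Psmd11. The others were Psmb5 and Psme3ip1. Of all 6969 genes above the same level, 16.9% correlated above 0.7 and 13.2% below -0.7 with the mean of the 39 genes. The share below -0.7 was thus near that of all genes, and nothing particular to the proteasome is read from it. These genes were singled out after their values were seen, and the correlations carry no p because the points share 6 arrays.

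As a description of the genes so chosen, the first set averaged 0.03, 0.08 and -0.11 on control replicates 1 to 3 and 0.13, -0.06 and -0.07 on knockout replicates 1 to 3. The opposing set averaged -0.07, -0.09 and 0.16, and then -0.16, 0.05 and 0.11. Control replicate 3 and knockout replicate 1 lay furthest apart in both sets. That the profiles of the sets are opposite follows from the choice by correlation over these same 6 arrays. The median correlation between genes was 0.47 within the core particle, -0.01 within the regulatory particle and -0.08 between them. The opposing set read between 8.32 and 11.9 on average and the first set between 9.48 and 13.9, so the sets also differ in signal, whose part in this was not tested. The 3 goblet markers had mean deviations from their 6-array means of -0.23, -0.24 and 0.29 on control and -0.26, 0.09 and 0.36 on knockout replicates 1 to 3, and the 6 general epithelial markers of -0.09, -0.09 and 0.09, then -0.11, 0.09 and 0.10. As means, both lists were thus low on the arrays where the opposing set was low, control replicates 1 and 2 and knockout replicate 1. So was the Paneth list there (-0.03, -0.08 and -0.16). Single markers differed: Krt8, Vil1 and Epcam lay above their own 6-array means on control replicate 1. Epcam and Krt18 did so on control replicate 2, and Cdx2 on knockout replicate 1. Lyz1 did so on control replicates 1 and 2, where Mmp7 alone made the Paneth mean low. The opposing set was centred on group means instead. The enterocyte and enteroendocrine lists were not low on control replicate 1 (0.10 and 0.07), nor the stem list on control replicate 2 (0.04). The part of the cell type lists was not tested either. Over the 39 genes, arrays of the same number correlated at 0.50 for number 1, -0.31 for number 2 and 0.65 for number 3. Arrays of different numbers reached 0.48 (control 2 with knockout 1) and 0.36 (control 3 with knockout 2), so the proteasome genes alone do not show the pairing found over all genes.

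**Figure D5:**
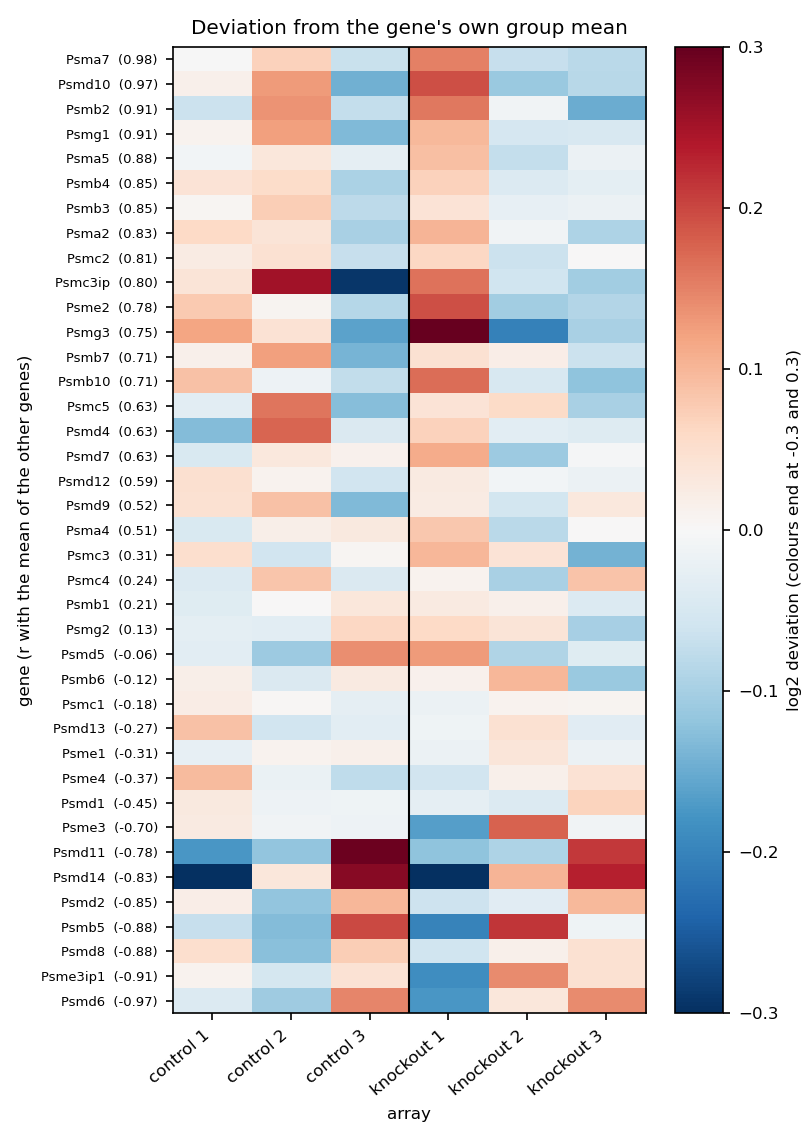
Deviation of each array from its own group mean (log2, colour) for the 39 genes above the upper quartile, ordered from top to bottom by the correlation (in brackets) of each gene with the mean of the others. Genes at the top, from Psma7 at 0.98, are high on knockout replicate 1 and low on control replicate 3, and genes at the bottom, down to Psmd6 at -0.97, show the reverse. That top and bottom are opposite follows from the ordering.

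Genes that act with the proteasome were examined from lists drawn up by function. Of 11 factors that bind or assemble it, 8 were measured and 0 passed. Ipo9, an importin that carries proteasomes into the nucleus, read 8.99, 9.08 and 9.16 in control and 8.17, 8.39 and 8.67 in knockout arrays. The groups did not overlap, and the difference of -0.67 ± 0.12 (SE) did not pass over all genes (adjusted p = 0.26). It did pass when genes at or below the upper quartile were left out (adjusted p = 0.022) and when the variance followed the level (0.0017). Over all alternatives its adjusted p ran up to 0.515, and with the gene's probes averaged the difference was -0.33. Pomp, the maturation factor of the core, differed by -0.19 ± 0.13 and Usp14, a deubiquitinase bound to the regulatory particle, by -0.15 ± 0.09. With its probes averaged Usp14 differed by -0.05.

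Of 8 regulators of proteasome gene transcription, 7 were measured and 0 passed. Nfe2l1, the factor that raises proteasome genes when degradation is blocked, read 10.37, 10.14 and 10.38 in control and 10.49, 10.59 and 10.40 in knockout. Its groups did not overlap, with a difference of 0.20 ± 0.08 (SE; adjusted p = 0.68). Nfe2l2, its relative in the oxidative stress response, differed by -0.15 ± 0.06 (adjusted p = 0.67) and by -0.07 with its probes averaged. Nfya differed by 0.04. Among 8 measured genes of ubiquitin activation and delivery, out of 15 listed, 0 passed. Rad23b, a shuttle for ubiquitylated proteins, differed by 0.17, and by 0.05 with its probes averaged. Vcp, the segregase that extracts such proteins from complexes, differed by 0.06, and Nploc4, its cofactor, by 0.07.

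In the list of class I antigen processing, which uses the immunoproteasome, 0 of 9 measured genes passed. Psmb8 and Psmb9, the other inducible cutting subunits, differed by 0.04 and -0.10 and Tapbp by 0.05, beside -0.16 for Psmb10 and -0.17 for Psme2. The nearest to passing was B2m, the light chain of class I molecules. It read 13.15, 13.10 and 13.16 in control and 12.75, 12.87 and 12.92 in knockout, without overlap (-0.29 ± 0.05, SE; adjusted p = 0.23). With its probes averaged B2m differed by -0.17. In the heat shock list 8 of 9 measured genes were higher, against 9393 of all 19057 genes, and 0 passed. The direction has no test, and Hspa8 counts as higher at only 0.007. Bag3 differed by 0.20 ± 0.14, Hspa1a by 0.06 and Hspa1b by 0.05, the latter pair at the bottom of the scale.

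The promoters of the genes were read to see what the members share in sequence. RefSeq windows of 300 bases, from 250 before to 50 after a gene's start in GRCm38.p6, matched 39 of the 47 genes, with 43 windows in all because 4 genes have more than 1. Psma8, Psmb1, Psmb2, Psmb7, Psmc3, Psmd3, Psmd7 and Psmg2 were not matched. The motifs searched were the following, each on both strands: TGANNNNGC, the core of the antioxidant response element that Nfe2l1 and Nfe2l2 bind, CCAAT, the box bound by NF-Y, and CCGGAA, a core bound by ETS factors. In the 43 windows no matches of different motifs overlapped each other. CCGGAA was present in 22 of the 43 windows (51.2%), against 14.9% of all 32851 windows. Proteasome windows are rich in CG, with a median of 19 CG dinucleotides against 7. Among windows with at least 10 of these the shares were 56.4% of 39 and 27.6% of 14281. TGANNNNGC was present in 58.1% against 41.3% of all windows, and CCAAT in 34.9% against 37.4%. The genes with CCGGAA had a median difference between genotypes of -0.02, as did those without it.

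The following windows are those of the 3 genes whose groups did not overlap, Psmc1 (chr12:100109952-100110251, plus strand), Psmc4 (chr7:28050043-28050342, minus strand) and Psmd1 (chr1:86064369-86064668, plus strand). They are followed by the windows of Psme3 (chr11:101315963-101316262, plus strand), which holds 3 matches to CCGGAA, and of Psmb5 (chr14:54617946-54618245, minus strand), a cutting subunit with 2 matches to TGANNNNGC. Each is printed in the direction of its gene, and capitals mark matches to the 3 motifs on either strand.
Psmc1: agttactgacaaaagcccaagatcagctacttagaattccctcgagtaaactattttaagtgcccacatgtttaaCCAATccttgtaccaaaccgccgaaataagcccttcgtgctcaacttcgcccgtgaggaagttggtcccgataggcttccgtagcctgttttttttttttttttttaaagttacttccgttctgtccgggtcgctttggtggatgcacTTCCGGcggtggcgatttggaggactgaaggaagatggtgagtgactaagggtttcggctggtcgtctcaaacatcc
Psmc4: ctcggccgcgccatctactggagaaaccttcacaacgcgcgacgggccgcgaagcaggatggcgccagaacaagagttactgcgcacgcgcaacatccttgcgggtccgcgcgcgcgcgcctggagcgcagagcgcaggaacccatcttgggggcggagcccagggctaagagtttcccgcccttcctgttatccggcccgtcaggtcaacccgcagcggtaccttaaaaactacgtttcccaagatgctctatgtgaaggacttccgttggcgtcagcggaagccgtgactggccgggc
Psmd1: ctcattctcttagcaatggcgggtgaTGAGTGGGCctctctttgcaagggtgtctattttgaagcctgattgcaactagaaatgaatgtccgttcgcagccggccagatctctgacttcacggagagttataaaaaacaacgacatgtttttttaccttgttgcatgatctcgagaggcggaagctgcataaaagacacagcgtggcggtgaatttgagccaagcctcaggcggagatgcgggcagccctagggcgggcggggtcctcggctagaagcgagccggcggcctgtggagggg
Psme3: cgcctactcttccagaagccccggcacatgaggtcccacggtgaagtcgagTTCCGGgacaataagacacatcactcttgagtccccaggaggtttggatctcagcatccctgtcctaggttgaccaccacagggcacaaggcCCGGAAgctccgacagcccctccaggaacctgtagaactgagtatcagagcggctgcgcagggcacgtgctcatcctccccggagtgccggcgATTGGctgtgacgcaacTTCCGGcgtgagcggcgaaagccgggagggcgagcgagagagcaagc
Psmb5: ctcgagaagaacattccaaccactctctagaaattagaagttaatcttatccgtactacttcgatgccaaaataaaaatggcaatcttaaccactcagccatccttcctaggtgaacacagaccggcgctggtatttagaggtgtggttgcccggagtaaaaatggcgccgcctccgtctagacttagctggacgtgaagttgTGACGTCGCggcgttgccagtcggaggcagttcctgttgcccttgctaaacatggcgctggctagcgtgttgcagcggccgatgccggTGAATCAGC
Psmc1 has a CCAAT box at bases 76 to 80 and CCGGAA, read on the opposite strand, at bases 224 to 229. Psmd1 has TGANNNNGC alone, at bases 27 to 35, and Psmc4 has none of these letters in this window. The 3 genes whose groups did not overlap thus had none of the searched motifs in common. Such matches describe letters only and say nothing of binding.

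The 47 genes lie on 16 chromosomes in GRCm38.p6, with 9 on chromosome 11. On chromosome 2, which also carries Snai1, lie Psmd5, Psmb7, Psmd14, Psmc3 and Psma7. Of these 5 genes 3 were lower in knockout, the median difference was -0.01, and 0 passed. Psmc1 lies on chromosome 12 and Psmd1 on chromosome 1.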

How the data were processed

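RNA of 6 organoid samples was hybridised as biotin-labelled cRNA to Illumina arrays, per the labels' protocols. The deposited table holds log2 values (base assumed) for 45281 probes. Values of equal rank differed between arrays by 0.00187 or less, which shows that their distributions had been made equal before deposit. Software: not given in the sources used here, nor any background correction. The number of arrays limits the precision. The platform annotation names 1 gene for 34885 probes; each gene took its probe of highest mean over the 6 arrays. Members and lists were chosen with earlier results of these data known. The genotypes were compared by limma 3.58.1 under R 4.3.3 (lmFit, eBayes, Benjamini-Hochberg over 19057 genes), tested on simulated data. Replicates of the same number deviated together over all genes (r = 0.349, 0.327 and 0.456), so numbers were taken as pairs in the blocked fit; the labels do not say what they share. Named genes are the cutting, receptor and activator genes, the 6 lowest p in each direction, the extremes of each class, genes without overlap or with probes of opposite sign, and 3 per list. Alternatives were the block, cyclic loess, a filter on dim genes, averaged probes, trended variance, array weights and leaving out each array. Gene positions and promoters are from RefSeq, GRCm38.p6.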

Additional observations from a re-analysis of the deposited data

How the results depend on the processing

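The count of proteasome genes that passed was 0 in every alternative run, with the lowest adjusted p (limma) of any member between 0.0618 and 0.668. The count over all genes was 9 with the replicate block, 71 with trended and robust variances, 41 with genes at or below the upper quartile left out, and 4 to 23 without any 1 array; the cause was not tested. The median difference of the 47 genes kept its sign, at -0.0323 to -0.0149 without any 1 array. Core minus regulatory particle ran from -0.0470 to 0.0218 without any 1 array and was 0.0064 with averaged probes. All lay within 0.0569, its SD between arrays pooled within groups, though -0.0470 exceeded the control SD of 0.04. The count of intervals that exclude 1.5-fold, recomputed under settings chosen after seeing the data, stayed at 36 or more of 39. Of 40 named genes, 30 kept direction and side of the threshold throughout, and Ipo9 passed in 2 settings. The other 9, none of which passed in any setting, changed sign: with averaged probes Psmb7 differed by 0.0088, Psmd11 by -0.0185 and Psmd14 by -0.0063, with array weights Psmd4 by 0.0086, and with cyclic loess Psme1 by -0.0031. Without any 1 array the differences ran from -0.0958 to 0.112 for Psmb5, -0.0801 to 0.0253 for Psmb6, -0.0840 to 0.0464 for Psmb7, -0.0061 to 0.247 for Psmd11, -0.0944 to 0.225 for Psmd14, -0.0675 to 0.0846 for Psmd4, -0.0074 to 0.126 for Psmd5, -0.0145 to 0.0130 for Psme1 and -0.123 to 0.0404 for Psme3ip1. The block changed no call of a proteasome gene. The block, the trended variance and the filter on dim genes leave each difference as it is, so only the other alternatives could change a direction. Signal near the bottom of the scale limits the 8 dim members, for which no bound on a change can be given. The bounds of the 39 others refer to array values. For those just above 8.27, such as Psmd9 at 8.28 and Psmd6 at 8.32, compression may hide a larger change in transcript.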
